A study of Mus musculus with 8 samples.

Results

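The unfolded protein response genes measured here are 10 genes that were taken from the table of liver read counts by symbol: Hspa5, Hsp90b1, Herpud1, Sdf2l1, Dnajb9, Xbp1, Atf4, Ddit3, Trib3 and Asns. All 10 of these were found among the 19267 genes of the table, and all 10 passed the filter on low counts, although Asns passed it only through the libraries in which it was higher. The livers came from C57BL/6 males that were 9 weeks old. For 21 days they had been pair-fed Lieber-DeCarli liquid diet, which held either alcohol at 5% (w/v) (EtOH) or, at equal calories, maltose dextrin (Control). WT mice carried Cre recombinase under the villin promoter of intestinal epithelium, and Elf4-/- mice carried the same Cre together with a floxed Elf4 gene, so that the deletion was confined by design to intestinal epithelium and not made in the liver. There were 2 libraries in each of the 4 groups, named WT-Control and WT-EtOH for the first genotype and Elf4-/--Control and Elf4-/--EtOH for the second.

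The unfolded protein response is the program by which a cell adjusts the folding capacity of its endoplasmic reticulum (ER) when unfolded proteins build up in it. The ER membrane sensors IRE1, PERK and ATF6 start it: IRE1 splices the mRNA of Xbp1, PERK phosphorylates the initiation factor eIF2 alpha and thereby favours translation of Atf4, and ATF6 is cut to release a transcription factor. Hepatocytes secrete most plasma proteins and have an extensive ER, and alcohol feeding is among the conditions in which the program has been studied in liver. Splicing of Xbp1, phosphorylation and protein levels were not measured here, since a count per gene adds up its spliced and unspliced forms.

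Library totals ran from 6171051 to 9157362 counts. Elf4, the targeted gene, had 6 to 36 counts in a liver library and did not pass the threshold in any contrast (edgeR, lowest adjusted p = 0.133). The spread between libraries of a group was uneven: over genes with at least 50 counts on average, the log2 difference between replicates had an SD of 0.52 and 0.36 in WT on the Control and EtOH diets, and of 0.37 and 0.69 in Elf4-/- on these diets. Genes of the mitochondrial genome held 23.4% and 33.7% of the counts in the WT-Control pair, 10.8% and 12.5% in the WT-EtOH pair, and 18.3% to 22.1% in the 4 Elf4-/- libraries. Hepatocyte markers summed to 38748 CPM or more (the read count relative to the library total, scaled by TMM) in every library, and all 8 of these markers were detected in each group.

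The upstream sequences of the genes are shown first, because the response elements through which the program reaches its target genes lie in such stretches. The windows run from 250 bases before to 50 bases after the RefSeq start on GRCm38.p6, and all 10 members had one. Both strands were searched for the ER stress response element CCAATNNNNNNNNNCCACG, for its short form ATTGGNCCACG, for the UPR element TGACGTGG and for the C/EBP-ATF composite element TGATGNAA, where N is any base. The first and the UPR element share the letters CCACG, on opposite strands. Matches are in capitals below.
Hspa5 (chr2:34772020-34772048, plus strand): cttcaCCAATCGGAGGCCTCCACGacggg
Hsp90b1 (chr10:86705510-86705664, minus strand): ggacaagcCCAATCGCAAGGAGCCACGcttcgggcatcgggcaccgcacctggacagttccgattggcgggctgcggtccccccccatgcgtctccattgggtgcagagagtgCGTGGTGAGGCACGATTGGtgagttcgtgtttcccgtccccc
Herpud1 (chr8:94386309-94386428, plus strand): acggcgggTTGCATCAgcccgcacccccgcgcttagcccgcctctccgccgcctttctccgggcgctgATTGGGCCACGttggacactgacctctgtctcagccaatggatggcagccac
Asns (chr6:7693215-7693242, minus strand): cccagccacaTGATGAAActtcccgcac
Sdf2l1 (chr16:17132384-17132503, minus strand): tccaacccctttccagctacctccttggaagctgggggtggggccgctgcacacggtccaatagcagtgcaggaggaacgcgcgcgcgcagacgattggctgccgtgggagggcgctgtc
Trib3 (chr2:152344061-152344180, minus strand): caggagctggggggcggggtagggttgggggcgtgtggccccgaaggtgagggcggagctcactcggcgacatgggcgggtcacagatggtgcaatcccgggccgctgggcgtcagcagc
Each line reads 5′ to 3′ on the strand of its gene. The stretches of Hspa5 and Asns lie before the RefSeq start but inside the first exon of the GENCODE M21 gene model, which starts earlier, and were kept short.

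The spaced ER stress response element was found once in Hspa5, 65 to 47 bases before the start, and in both orientations in Hsp90b1, 212 to 194 and 107 to 89 bases before it. Of all 32851 windows, 0.119% held this element. Herpud1 held the short form 52 to 42 bases before its start, which 0.0365% of windows shared, and a composite element 112 to 105 bases before it. The composite element, to which ATF4 dimers bind, was found in 3.97% of windows, and among the members also in Asns, 23 to 16 bases before the start, and in Trib3, 15 to 22 bases after it and so outside the stretch shown. The UPR element was found in 0.676% of windows and in no member. The windows of Sdf2l1 and Dnajb9, which changed with the diet in WT, held none of the 4 letter patterns. The stretches of Sdf2l1 and Trib3 are shown because these members fell in WT.

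Per kilobase of annotated exon, the members spanned a wide range of levels in these livers. Herpud1 had the highest mean level over the 8 libraries, 123 CPM per kilobase, and was followed by Hsp90b1 at 83.0, Hspa5 at 68.1, Atf4 at 57.0 and Xbp1 at 50.4 CPM per kilobase. Dnajb9 stood at 22.9, Ddit3 at 11.6, Sdf2l1 at 9.75, Trib3 at 5.81 and Asns at 0.658 CPM per kilobase. The chaperones Hsp90b1 and Hspa5 stood above the regulators Ddit3 and Trib3 in level per length. The regulators Atf4 and Xbp1 in turn stood above Dnajb9 and Sdf2l1, so chaperones and regulators were not set apart by level. Between libraries, Trib3 varied most among the 9 members other than Asns, with the highest CPM 5.30 times the lowest, and Hsp90b1 least, with 1.39 times. The following values are CPM without the division by length, given for replicate 1 and then replicate 2, and gene positions are those of GENCODE M21 on GRCm38, where all 10 are protein coding.

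The alcohol diet changed 3 of the 10 genes in WT livers: Dnajb9 rose, and Sdf2l1 and Trib3 fell. The major chaperones Hspa5 and Hsp90b1, the ER degradation gene Herpud1, the transcription factors Xbp1, Atf4 and Ddit3, and Asns did not pass the threshold. In Elf4-/- livers none of the 10 passed it by edgeR or by DESeq2, and 1 had an unadjusted p under 0.05, as 21.2% of all genes did. As background, 21.6% of the 13993 genes tested passed in WT, 10.8% upward and 10.8% downward (3422 genes upward and 634 downward where libraries were scaled by their totals alone), and 2.89% passed in Elf4-/-, 1.71% upward and 1.18% downward. The median log2 fold change of the 10 genes was -0.07 in WT and 0.04 in Elf4-/-, beside medians of all genes of 0.01 in each.

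**Figure D1:**
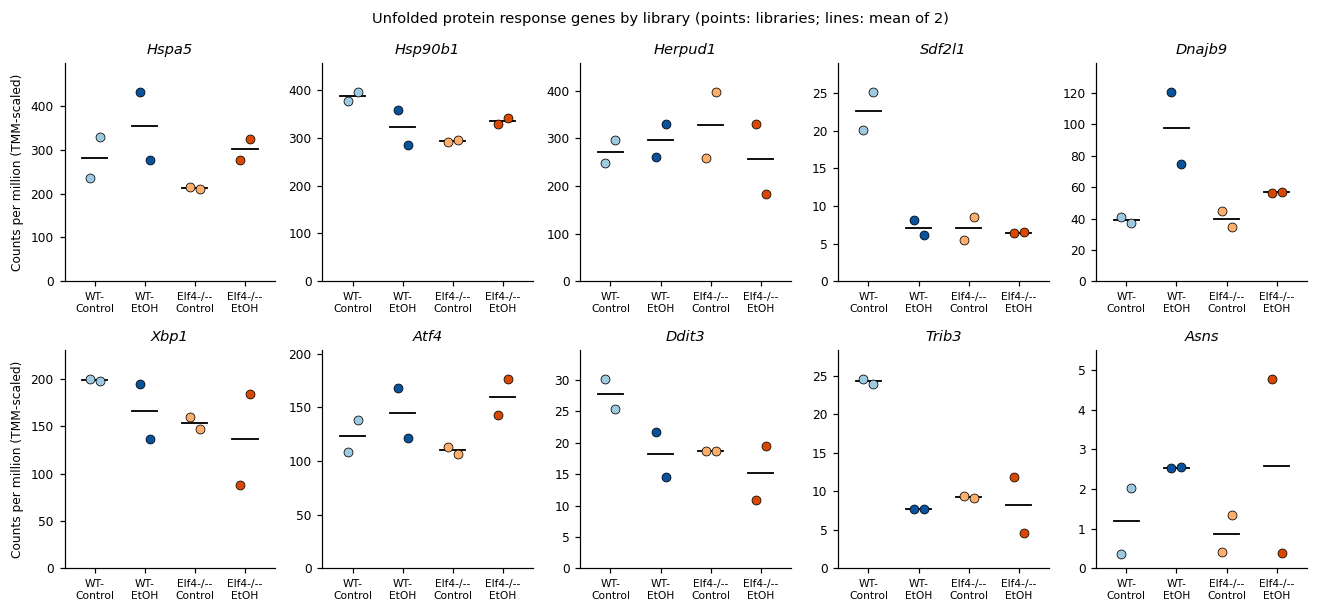
Level of each gene in each library, as TMM-scaled CPM on a linear axis that starts at 0, with 2 points (libraries) and a line (their mean) for each of the 4 groups. Sdf2l1 and Trib3 stand above all other libraries in WT-Control, Dnajb9 stands highest in WT-EtOH, and Hspa5 overlaps between diets in WT.

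Dnajb9 encodes an ER-resident cochaperone of the J-domain family, also called ERdj4, which stimulates the ATPase of the Hspa5 product and is a target of the IRE1 and XBP1 arm. The gene (ENSMUSG00000014905.4) lies at chr12:44205559-44210326 on the minus strand. Its level was 40.8 and 37.0 CPM in the WT-Control pair, 121 and 74.9 in the WT-EtOH pair, 44.8 and 34.3 in the Elf4-/--Control pair, and 56.4 and 57.0 in the Elf4-/--EtOH pair. Both WT-EtOH libraries stood above every other library, and the Elf4-/--EtOH libraries lay between them and the controls. In WT the gene rose 2.52-fold (log2 fold change 1.33 ± 0.25 (SE), n = 2 libraries per group; edgeR quasi-likelihood test, adjusted p = 0.00703). In Elf4-/- the log2 fold change was 0.52, with an adjusted p of 0.264 by edgeR. The genotype difference under EtOH was -0.79 ± 0.24 (log2, Elf4-/- minus WT; edgeR adjusted p = 0.297), and the difference between both diet effects was -0.81 (edgeR adjusted p = 0.477), so a smaller effect in Elf4-/- was not shown. Without WT-EtOH replicate 1, the rise in WT was 0.94 on the log2 scale and its edgeR adjusted p was 0.0570. The miRNA gene Mir5627 overlaps the exons of Dnajb9 on the opposite strand.

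Sdf2l1 encodes a soluble ER protein that works with J-domain cochaperones of the Hspa5 product. The gene (ENSMUSG00000022769.9) lies at chr16:17130138-17132383 on the minus strand. Its level was 20.1 and 25.2 CPM in the WT-Control pair, 8.09 and 6.11 in the WT-EtOH pair, 5.53 and 8.50 in the Elf4-/--Control pair, and 6.38 and 6.50 in the Elf4-/--EtOH pair. Both WT-Control libraries stood above the other 6, which overlapped with each other. These levels rested on 108 and 137 counts in WT-Control and on 40 to 64 counts elsewhere. In WT the gene fell 3.20-fold under EtOH (log2 fold change -1.68 ± 0.29 (SE); edgeR adjusted p = 0.00512), and in Elf4-/- the log2 fold change was -0.11 (edgeR adjusted p = 0.873). Without WT-EtOH replicate 2, the WT value was -1.49 and its edgeR adjusted p was 0.0604.

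Trib3 encodes a pseudokinase that is induced by ATF4 and CHOP and feeds back on them. The gene (ENSMUSG00000032715.9) lies at chr2:152337422-152344032 on the minus strand. Its level was 24.6 and 23.9 CPM in the WT-Control pair, 7.71 and 7.64 in the WT-EtOH pair, 9.43 and 9.10 in the Elf4-/--Control pair, and 11.8 and 4.64 in the Elf4-/--EtOH pair. As for Sdf2l1, the WT-Control pair stood above the other 6 libraries, and the Elf4-/--EtOH pair was the most spread. In WT the gene fell 3.16-fold under EtOH (log2 fold change -1.66 ± 0.36 (SE); edgeR adjusted p = 0.0116), and in Elf4-/- the log2 fold change was -0.19 (edgeR adjusted p = 0.808). The WT call was lost without WT-Control replicate 1 (-1.64, edgeR adjusted p = 0.0542), without WT-EtOH replicate 1 (-1.66, adjusted p = 0.0740) and without WT-EtOH replicate 2 (-1.66, adjusted p = 0.0884).

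On the control diet, Sdf2l1 and Trib3 stood lower in both Elf4-/- libraries than in both WT libraries. The fall with diet in WT, this difference and the interaction all draw on the same WT-Control pair, so they are not separate results. That pair also had the highest mitochondrial shares, 33.7% and 23.4%, whose part in these results was not tested. The difference under Control was -1.70 ± 0.29 (log2, Elf4-/- minus WT, SE) for Sdf2l1 and -1.39 ± 0.35 for Trib3, at edgeR adjusted p = 0.163 and 0.352, where unadjusted p-values were 1.8e-04 and 0.0029. None of the 10 genes passed in this contrast, in which 0.0143% of all genes did. Leaving out either Elf4-/--EtOH library, which is not part of this contrast but of its estimate of spread, took both genes past the threshold, Sdf2l1 at adjusted p = 0.0471 and 0.0465 and Trib3 at 0.0343 and 0.0319, and DESeq2 called Sdf2l1 alone of the 10 (adjusted p = 0.00447). The interaction of genotype and diet was 1.57 ± 0.42 for Sdf2l1 (edgeR adjusted p = 0.281) and 1.47 ± 0.51 for Trib3 (edgeR adjusted p = 0.383). Without Elf4-/--EtOH replicate 2 the Trib3 interaction was 1.99 (edgeR adjusted p = 0.0279), and without replicate 1 of that group it was 0.66. None of the 10 genes and none of the 13993 genes (0%) passed in the interaction by edgeR, where 3 members and 1411 genes had an unadjusted p under 0.05 and DESeq2 called 111 genes.

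Hspa5 encodes BiP, the main HSP70 chaperone of the ER lumen, which also binds the sensors and keeps them inactive in unstressed cells. The gene (ENSMUSG00000026864.13) lies at chr2:34771970-34777547 on the plus strand. Its level was 234 and 330 CPM in the WT-Control pair, 433 and 276 in the WT-EtOH pair, 216 and 211 in the Elf4-/--Control pair, and 278 and 325 in the Elf4-/--EtOH pair. The diets overlapped in WT and were separate in Elf4-/-. The log2 fold change was 0.33 ± 0.27 (SE) in WT (edgeR adjusted p = 0.413) and 0.50 ± 0.27 in Elf4-/- (edgeR adjusted p = 0.321). Without WT-EtOH replicate 1 the WT value was -0.03.

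Hsp90b1 encodes GRP94, the HSP90 chaperone of the ER, and its gene carries the ER stress response elements shown above. The gene (ENSMUSG00000020048.13) lies at chr10:86690209-86705509 on the minus strand. It stood at 377 and 397 CPM in the WT-Control pair, 359 and 285 in the WT-EtOH pair, 292 and 296 in the Elf4-/--Control pair, and 329 and 342 in the Elf4-/--EtOH pair. Its log2 fold change with diet was -0.27 ± 0.21 (SE) in WT (edgeR adjusted p = 0.400), which turned to 0.16 where libraries were scaled by their totals alone, and 0.19 in Elf4-/- (edgeR adjusted p = 0.651). The pseudogene 1810014B01Rik on the opposite strand and the transcripts Gm15344 and Gm25745 on the same strand overlap its exons, so its counts are uncertain to the extent that reads were shared.

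Herpud1, an ER membrane protein that serves ER-associated degradation, varied within groups as much as between them. The gene (ENSMUSG00000031770.16) lies at chr8:94386438-94395377 on the plus strand. Its level was 248 and 296 CPM in the WT-Control pair, 261 and 331 in the WT-EtOH pair, 258 and 398 in the Elf4-/--Control pair, and 330 and 182 in the Elf4-/--EtOH pair. The diets overlapped in both genotypes. Its log2 fold change was 0.12 ± 0.32 (SE) in WT (edgeR adjusted p = 0.811) and -0.36 ± 0.32 in Elf4-/- (edgeR adjusted p = 0.559).

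Xbp1, the transcription factor activated by IRE1, stood at 200 and 197 CPM in the WT-Control pair, 195 and 137 in the WT-EtOH pair, 160 and 147 in the Elf4-/--Control pair, and 88.0 and 184 in the Elf4-/--EtOH pair. The gene (ENSMUSG00000020484.18) lies at chr11:5520659-5525893 on the plus strand. The Elf4-/--EtOH pair held the lowest library and was the most spread. Its log2 fold change was -0.26 ± 0.32 (SE) in WT (edgeR adjusted p = 0.589), which turned to 0.16 with scaling by library totals, and -0.17 in Elf4-/- (edgeR adjusted p = 0.800). These are totals of its spliced and unspliced mRNA.

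Atf4, the transcription factor whose translation rises when eIF2 alpha is phosphorylated, was the 1 member below an unadjusted p of 0.05 in Elf4-/-. The gene (ENSMUSG00000042406.8) lies at chr15:80255184-80257541 on the plus strand. Its level was 109 and 138 CPM in the WT-Control pair, 168 and 122 in the WT-EtOH pair, 113 and 107 in the Elf4-/--Control pair, and 143 and 177 in the Elf4-/--EtOH pair. The diets overlapped in WT and not in Elf4-/-. Its log2 fold change was 0.54 ± 0.23 (SE) in Elf4-/- (unadjusted p = 0.0433, edgeR adjusted p = 0.220) and 0.23 ± 0.23 in WT (edgeR adjusted p = 0.508).

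Ddit3 encodes CHOP, the ATF4-induced factor linked to cell death under lasting ER stress. The gene (ENSMUSG00000025408.15) lies at chr10:127290774-127296288 on the plus strand. Its level was 30.2 and 25.4 CPM in the WT-Control pair, 21.7 and 14.6 in the WT-EtOH pair, 18.7 and 18.6 in the Elf4-/--Control pair, and 10.8 and 19.5 in the Elf4-/--EtOH pair. The WT-Control pair stood highest, as for Sdf2l1 and Trib3, and did not overlap with the WT-EtOH pair, but the difference missed the threshold: the log2 fold change was -0.62 ± 0.29 (SE) in WT (unadjusted p = 0.0619, edgeR adjusted p = 0.159) and -0.29 in Elf4-/- (edgeR adjusted p = 0.618). Exons of Mars and Gm4189 lie against those of Ddit3 on the opposite strand, and a second Ddit3 gene model overlaps it.

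Asns, the asparagine synthetase that ATF4 induces, was close to the limit of detection, with 2 and 11 counts in the WT-Control pair, 20 and 25 in the WT-EtOH pair, 4 and 9 in the Elf4-/--Control pair, and 30 and 3 in the Elf4-/--EtOH pair. The gene (ENSMUSG00000029752.12) lies at chr6:7675169-7693254 on the minus strand. These are 0.373 and 2.02, 2.53 and 2.55, 0.410 and 1.34, and 4.78 and 0.398 CPM. Its log2 fold changes of 1.07 ± 1.04 (SE) in WT (edgeR adjusted p = 0.489) and 1.59 ± 1.06 in Elf4-/- (edgeR adjusted p = 0.417) had the widest errors of the 10 genes. The libraries of a group differed widely, by 30 against 3 counts in Elf4-/--EtOH, and neither change passed the threshold.

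**Figure D2:**
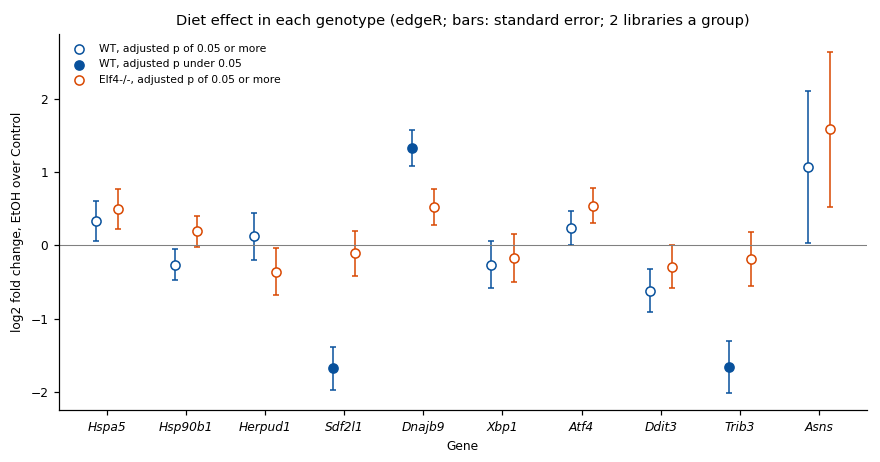
Log2 fold change of EtOH over Control for each gene, in WT (blue) and in Elf4-/- (orange), with bars for the standard error and filled points where the edgeR adjusted p is under 0.05. Filled points are Dnajb9 at 1.33, Sdf2l1 at -1.68 and Trib3 at -1.66, all in WT.

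Under EtOH, none of the 10 genes passed the threshold between genotypes by edgeR or by DESeq2, in a contrast in which 0.143% of all genes passed. Log2 differences (Elf4-/- minus WT) ran from -0.79 for Dnajb9 to 0.14 for Atf4, adjusted p-values were 0.297 or more, and Dnajb9 was the 1 member with an unadjusted p under 0.05. The standard errors of these differences were 0.21 to 0.91 on the log2 scale.

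Genes around the 10 members in the pathway were read from lists of genes, each with its own count beside the background shares above. Of 26 genes for ER chaperones and folding enzymes, 3 rose and 6 fell with the diet in WT, and the list median was -0.27 on the log2 scale. Fkbp11, a peptidyl-prolyl isomerase of the secretory pathway, fell 6.29-fold in WT (log2 fold change -2.65 ± 0.27 (SE), edgeR adjusted p = 9.8e-04) and 2.49-fold in Elf4-/- (-1.31 ± 0.26, edgeR adjusted p = 0.0304), the 1 gene of this list that passed in both genotypes. With only the Elf4-/- libraries in the fit, its value there was -1.31 and the edgeR adjusted p 0.112. The lectin chaperones moved in opposite directions in WT. Calr, which encodes the soluble calreticulin, fell from 592 and 610 CPM in WT-Control to 269 and 200 in WT-EtOH, 2.57-fold (edgeR adjusted p = 0.00459), while Canx, which encodes the membrane-bound calnexin, rose from 73.8 and 76.9 to 181 and 164 CPM, 2.28-fold (edgeR adjusted p = 0.00363). Both gene products bind monoglucosylated glycoproteins. Dnajc3, which encodes an ER cochaperone known as P58IPK, rose 1.69-fold (edgeR adjusted p = 0.0266). In Elf4-/- the log2 fold changes of Calr and Canx were 0.07 and 0.59, neither past the threshold by edgeR.

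Of 17 genes for ER-associated degradation, 3 rose and 2 fell in WT, with a list median of 0.07, and none passed in Elf4-/- by edgeR or DESeq2, where 6 had an unadjusted p under 0.05, beside 21.2% of all genes. Ube2g2, a ubiquitin-conjugating enzyme of this route, rose 2.76-fold (edgeR adjusted p = 0.0122), Selenos, a selenoprotein of the ER membrane, 2.19-fold (adjusted p = 0.0300), and Erlec1, an ER lectin, 1.77-fold (adjusted p = 0.0432). Derl3, a derlin of the ER membrane, fell 3.39-fold (edgeR adjusted p = 0.0167) and Edem2, which takes part in trimming of mannose from glycoproteins, 2.32-fold (adjusted p = 0.00460). These genes had the same direction in Elf4-/-, with log2 fold changes of 0.87, 0.73, 0.46, -1.44 and -0.75 in the order named. Their interactions had edgeR adjusted p-values of 0.631 to 0.913, so no difference between the genotypes was shown.

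A list of 15 genes held mainly sensors and transcription factors, and also Eif2s1, which encodes eIF2 alpha itself. In WT, Eif2s1 rose 2.05-fold (edgeR adjusted p = 0.0258) and Ern1, which encodes the sensor IRE1, fell 1.81-fold (adjusted p = 0.0214). Ern1 had log2 fold changes of -0.85 in WT and -0.82 in Elf4-/-, the second at an edgeR adjusted p of 0.0712. Eif2s1 had 1.03 in WT and 0.78 in Elf4-/-, the second at an edgeR adjusted p of 0.133. The list median was -0.09 in each genotype, and none passed in Elf4-/- by edgeR or DESeq2, where 5 had an unadjusted p under 0.05.

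Of 25 ATF4 and CHOP targets tested, 3 rose and 2 fell in WT, with a median of 0.30. Fgf21, a hormone that liver secretes under metabolic stress, had 4.10 and 4.05 CPM in the WT-Control pair, against 12.5 and 21.4 in the WT-EtOH pair, and rose 4.16-fold (edgeR adjusted p = 0.0141). The amino acid transporter Slc1a5 rose 2.06-fold (adjusted p = 0.0357) and Cebpg, a partner of ATF4, 1.73-fold (adjusted p = 0.0209). In Elf4-/- the log2 fold changes of Fgf21, Slc1a5 and Cebpg were 0.89, 0.89 and 0.16, none past the threshold by edgeR. Cth, which makes cysteine from cystathionine, fell 1.90-fold in WT (edgeR adjusted p = 0.0298), next to Trib3, and had a log2 fold change of 0.72 in Elf4-/- (adjusted p = 0.148). In Elf4-/- the median of this list was 0.44, and Vldlr, the receptor for very low density lipoprotein, rose 4.53-fold (edgeR adjusted p = 0.0414). That rise rested on 36 and 12 counts under Control and 104 and 69 under EtOH. In WT the log2 fold change of Vldlr was 1.35 (edgeR adjusted p = 0.0743). Its interaction was 0.83 (edgeR adjusted p = 0.732), so a larger rise in Elf4-/- was not shown.

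Of 12 aminoacyl-tRNA synthetases, a class that ATF4 also induces, 3 rose and none fell in WT: Nars 1.72-fold, Gars 1.69-fold and Tars 1.65-fold (edgeR adjusted p = 0.0220, 0.0271 and 0.0372). The list of eIF2 alpha kinases and phosphatase subunits had 10 genes, which also took in Nck1, Dnajc3 and Eif2b5. In WT the phosphatase catalytic subunit Ppp1ca rose 1.71-fold (edgeR adjusted p = 0.0203) and the adaptor Nck1 2.16-fold (adjusted p = 0.0182). Dnajc3 rose as given above (edgeR adjusted p = 0.0266), and Eif2ak2, the kinase PKR, fell 1.68-fold (adjusted p = 0.0383). Of 24 tested genes for the ER translocon and N-glycosylation, the signal peptidase subunit Spcs1 rose 3.82-fold (adjusted p = 0.00248) and the oligosaccharyltransferase subunit Stt3b 1.55-fold (adjusted p = 0.0460), whereas the signal peptidase subunit Spcs3 fell 1.73-fold (adjusted p = 0.0257) and the glycoprotein sensor Uggt1 1.61-fold (adjusted p = 0.0406). None of these 3 lists held a gene past the threshold in Elf4-/-, by edgeR, where 3, 3 and 4 of their genes had an unadjusted p under 0.05 and DESeq2 called Spcs1. Log2 fold changes in Elf4-/- were 0.61, 0.64 and 0.45 for Nars, Gars and Tars, and 0.68, 0.73 and 0.48 for Ppp1ca, Nck1 and Dnajc3. Those of Spcs1, Stt3b and Uggt1 were 1.10 (edgeR adjusted p = 0.0541), 0.41 and -0.23. Eif2ak2 and Spcs3 had the opposite sign to WT there, at 0.21 and 0.14. By edgeR, no list held a gene past the threshold in either genotype contrast or in the interaction, where the other lists had 0 to 5 genes with an unadjusted p under 0.05. Of the 26 chaperone genes, 6 had such a p by genotype under EtOH, 8 under Control and 8 in the interaction, beside 10.5%, 7.31% and 10.1% of all genes. Under Control 3 of the 26 had a log2 difference above 0 (Elf4-/- minus WT) and the list median was -0.37. Under EtOH 10 were above 0 with a median of -0.14, and in the interaction 17 were above 0 with a median of 0.26. Medians of all genes in these contrasts were 0.012, 0.001 and -0.002. The Control difference and the interaction both draw on the WT-Control pair, so they are not separate results. DESeq2 called Calr, Sdf2l1 and Derl3 by genotype under Control, Cth by genotype under EtOH, and Calr and Cth in the interaction.

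**Figure D3:**
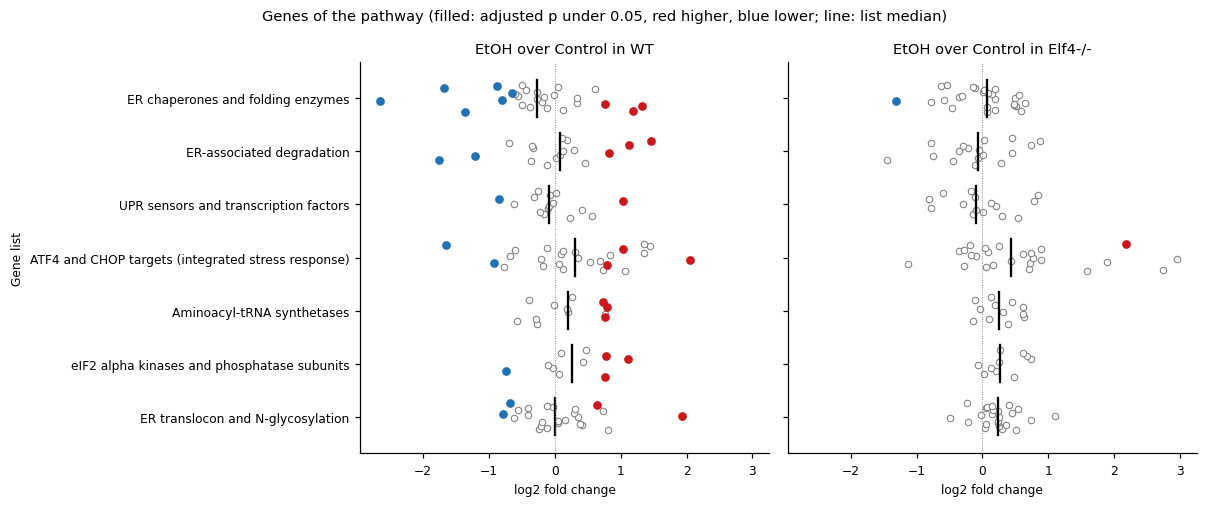
Log2 fold change of EtOH over Control for every tested gene of 7 lists of the pathway, in WT (left) and in Elf4-/- (right), with filled points (red higher, blue lower) where the edgeR adjusted p is under 0.05 and a line for the list median. Genes past the threshold lie on both sides of 0 in 6 of the 7 lists in WT, and the aminoacyl-tRNA synthetases have 3 on the higher side; in Elf4-/- Fkbp11 and Vldlr are filled.

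With 1 library left out, 3 of the 28 genes named as changed in WT, Canx, Fkbp11 and Spcs1, passed the threshold in every one of the 8 fits, and 25 lost it in at least 1. Calls over all genes also varied widely between these fits, as given at the end. The share of all called genes that was lost in each fit was not counted, so these losses do not set the named genes apart. Without WT-EtOH replicate 2, most of the 28 lost it. Without WT-EtOH replicate 1, WT-Control replicate 1 and WT-Control replicate 2, 19, 20 and 14 lost it, at adjusted p-values up to 0.218, 0.182 and 0.119. Leaving out Elf4-/--Control replicate 1 or 2 ended 9 of the calls each, at adjusted p-values up to 0.0770 and 0.0766. In Elf4-/-, leaving out either Elf4-/--Control library, Elf4-/--EtOH replicate 1 or either WT-EtOH library ended both calls, at adjusted p-values of 0.271 or less, and Vldlr lost its call also without either WT-Control library (0.0612 and 0.0607).

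Cell type markers moved with the diet as well. All 6 Kupffer cell markers rose in WT, and their sum went from 199 and 151 CPM in WT-Control to 558 and 505 in WT-EtOH. In Elf4-/- their sum was 142 and 139 CPM under Control and 199 and 189 under EtOH, and 1 of the 6, Marco, rose (log2 fold change 2.81, edgeR adjusted p = 0.0276). Under EtOH, 2 of the 6 were lower in Elf4-/- than in WT, Cd5l by -1.69 and Clec4f by -1.32 (log2, edgeR adjusted p = 0.0268 and 0.0418), and all 6 had an unadjusted p under 0.05, in the contrast in which 20 genes of the table passed. These markers are named after their values were seen. All 5 markers of sinusoidal endothelium rose in WT, with sums of 87.4 and 43.6 CPM in WT-Control against 225 and 265 in WT-EtOH, and none passed in Elf4-/- by edgeR, where 1 had an unadjusted p under 0.05 and the sums were 126 and 122 CPM under Control and 171 and 112 under EtOH. Of the stellate cell markers 3 of 5 rose in WT, with sums of 63.6 and 25.4 CPM in WT-Control against 223 and 293 in WT-EtOH. Stellate sums stood higher under EtOH in Elf4-/- too, at 109 and 77.0 CPM under Control against 303 and 179 under EtOH, where none of the 5 passed by edgeR and 2 had an unadjusted p under 0.05. The hepatocyte marker sum was 57384 to 80108 CPM in WT-Control and 38748 to 45261 in WT-EtOH, with 1 of 8 markers past the threshold. In Elf4-/- this sum was 69440 to 77390 CPM under Control and 47003 to 59938 under EtOH. There none of the 8 passed by edgeR, 1 had an unadjusted p under 0.05, and 4 had a log2 fold change above 0. Between genotypes under Control, 4 of 5 endothelial and 3 of 5 stellate markers had an unadjusted p under 0.05 by edgeR. Their median log2 differences (Elf4-/- minus WT) were 1.04 and 0.96, none passed, and 7.31% of all genes had such a p. Of the Kupffer cell and hepatocyte markers, none had such a p. None of the defining markers of these 4 cell types was at 0 in any group. In bulk liver, fewer cells of a type and less RNA per cell cannot be told apart, and the part of these shifts in the results for the 10 genes was not tested.

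**Figure D4:**
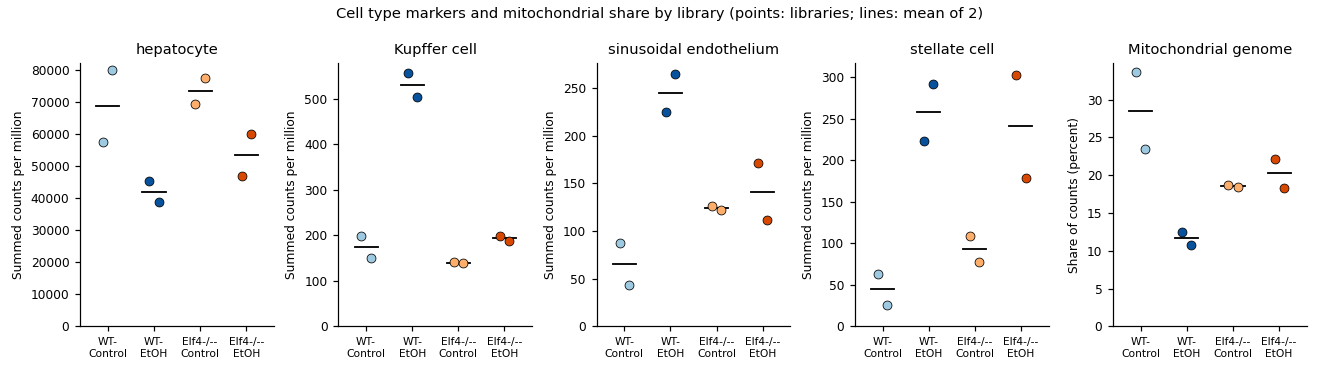
Summed TMM-scaled CPM of the markers of 4 liver cell types, and the share of counts from the mitochondrial genome in percent, by library, with points for the 8 libraries and lines for the mean of 2. The WT-EtOH pair is highest for Kupffer cell and endothelial markers and lowest for the mitochondrial share.

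Plasma and B cell markers summed to 14.9 to 18.8 CPM in WT-Control and 31.2 to 55.4 in WT-EtOH, with 2 of 4 tested genes higher, and Mzb1 was at 0 in WT-EtOH. None of 5 bile duct, 3 neutrophil, 2 T cell, 1 pancreatic acinar and 3 intestinal genes tested passed by edgeR in the diet contrasts. Of 4 red blood cell genes, 1 fell in WT. In Elf4-/- all 3 neutrophil genes and the acinar gene had an unadjusted p under 0.05 by edgeR, beside 21.2% of all genes. The neutrophil genes had a median log2 fold change of 2.39. They summed to 13.2 and 1.72 CPM in Elf4-/--EtOH against 0.922 and 1.79 in Elf4-/--Control. In WT 3 bile duct genes and 1 intestinal gene had such a p, beside 36.4% of all genes. Of clock genes in the phase of Per and Dbp, 4 of 10 fell in WT and 1 of 10 in Elf4-/-, although the median log2 fold change was -0.65 in WT and -1.27 in Elf4-/- and 6 and 10 of the genes had an unadjusted p under 0.05. In the phase of Bmal1, 2 of 4 rose in WT, with a median of 0.99, and none passed in Elf4-/- by edgeR, where 3 had an unadjusted p under 0.05 and the median was 0.63. Between genotypes under Control, 6 of the 10 genes in the phase of Per and Dbp had an unadjusted p under 0.05 by edgeR. None passed, and their median log2 difference (Elf4-/- minus WT) was 0.32. In the phase of Bmal1, 1 of 4 had such a p, with a median of -0.50. Of 9 feeding and fasting genes, 3 fell with the diet in WT, with a median log2 fold change of -1.13. None passed in Elf4-/- by edgeR, with a median of -0.08. By genotype under EtOH, 7 were above 0 (Elf4-/- minus WT), with a median of 0.87. There 3 had an unadjusted p under 0.05 by edgeR, beside 10.5% of all genes. Under Control the median was -0.07 and in the interaction 0.93, and none passed in these 3 contrasts by edgeR. The part of time of day or feeding in the results for the 10 genes was not tested.

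Among the 9397 genes with at least 50 counts on average, those with a pattern most like Hspa5 over the 8 libraries were Ufm1, Wdr77 and Sec63 (Pearson r of log2 CPM 0.96, 0.95 and 0.94), and the least like was Tk1 (-0.97). Sec63 encodes an ER translocon cochaperone. Of the other members, Atf4 (0.87) and Dnajb9 (0.73) were most like Hspa5. Trib3 was most like Neu1, Mtmr3 and Tor2a (0.96, 0.96 and 0.95), least like Nampt (-0.98), and of the members most like Sdf2l1 (0.85). These r values describe 8 libraries that share their 4 groups, and come with no test.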

How the data were processed

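RNA was sequenced in 8 liver libraries (2 per group). Per the study's methods, the authors mapped paired reads to mm10 with HISAT2, sorted them with samtools, counted them with HTSeq and tested with DESeq2. Versions, annotation and the strand setting are not given in the sources used here. The authors deposited raw read counts, as whole numbers by gene symbol. The table held 19267 genes and 968 blank rows, which were left out with 2 empty columns. Replicates are separate libraries, and nothing says more of their origin, so that p-values measure the spread between these libraries.

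Counts were tested with edgeR 4.0.16 (R 4.3.3; quasi-likelihood test, TMM scaling, filterByExpr by group) in 1 model of 4 groups with 5 contrasts. The filter left 13993 genes, which held 99.8% or more of every library, with a common biological coefficient of variation of 22.7%. P-values were adjusted by Benjamini-Hochberg over all genes tested, at a threshold of 0.05. The SE is the log2 fold change divided by the square root of F. Log2 CPM used a prior count of 2. Alternatives were DESeq2 1.42.0, its size factors, library totals, no filter, only the libraries compared, the replicate number as a block, and leaving out each library. The procedure was run on simulated counts with the same spread per gene in every group, which did not cover the uneven spread seen here. Exon length came from GENCODE M21 and promoters from RefSeq (GRCm38.p6), neither necessarily used for counting.

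The 10 members and all lists were chosen with earlier results of these data known. Of each list, up to 3 genes per diet contrast and direction with the largest change past the threshold were named. For Hspa5 and Trib3, the 3 most and 1 least correlated genes were named.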

Additional observations from a re-analysis of the deposited data

Results flagged for a closer look

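For some genes the EtOH and Control libraries did not overlap in either genotype, with EtOH higher in one and lower in the other. Some had genotypes that did not overlap under either diet, with Elf4-/- higher under one and lower under the other. Only the members and the genes named above were examined, and the share of all genes with such a pattern was not counted. Genes other than the members had been named for a diet effect past the threshold. That choice favours separate diets in that genotype and an interaction against its effect, so the pattern is a description and no test. The interaction was tested with edgeR and passed the threshold for no gene with this pattern. Of the 10 members this held for Hsp90b1, with log2 diet effects of -0.27 in WT against 0.19 in Elf4-/- and an interaction of 0.46 (adjusted p = 0.655). Calr had diet effects of -1.36 in WT and 0.07 in Elf4-/-, genotype effects of -0.88 under Control and 0.56 under EtOH, and an interaction of 1.43 (adjusted p = 0.230). Spcs3 had diet effects of -0.79 and 0.14, genotype effects of -0.46 under Control and 0.47 under EtOH, and an interaction of 0.93 (adjusted p = 0.346). In Elf4-/- the nearest libraries of the diets were 334.6 and 335.1 CPM for Calr, and 33.12 and 33.15 CPM for Spcs3 (Control first). Cth had diet effects of -0.93 in WT and 0.72 in Elf4-/- and an interaction of 1.64 (adjusted p = 0.230). By genotype, Fkbp11 had an interaction of 1.34 (adjusted p = 0.282) and Eif2ak2 of 0.96 (adjusted p = 0.347), both higher in Elf4-/- than in WT under EtOH and lower under Control. Canx (-0.60, adjusted p = 0.483) and Cebpg (-0.62, adjusted p = 0.492) went the opposite way. The pattern of Hsp90b1 in WT turned when libraries were scaled by their totals alone.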

How the results depend on the processing

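The calls of Dnajb9, Sdf2l1 and Trib3 in WT held under each of the settings other than leaving out a library, and 0 members were called by diet in Elf4-/- under any setting. Members called by genotype under Control were 1 with DESeq2. Genes called by diet in Elf4-/- numbered 811 with DESeq2 and 43 with only the libraries compared, against 404. By genotype under EtOH they were 180 with DESeq2, 50 without a filter and 0 with only the libraries compared, against 20, and by genotype under Control 79, 14 and 25, and 5 with library totals, against 2. In the interaction DESeq2 called 111 and no filter gave 7. In WT, DESeq2 called 1 of the aminoacyl-tRNA synthetases and 2 of the translocon list against 3 and 4, and library totals 6 and 9, and 8 of the ER-associated degradation list against 5. Of the 28 genes named as changed in WT, 9 lost the call in at least 1 setting other than leaving out a library: Erlec1, Gars, Tars, Eif2ak2, Stt3b and Uggt1 with DESeq2, Ern1, Cth, Eif2ak2, Spcs3 and Uggt1 with library totals, Eif2ak2, Stt3b and Uggt1 without a filter, and Erlec1, Tars, Eif2ak2 and Stt3b with the block, at adjusted p-values of 0.0509 to 0.403. With only the libraries compared, Fkbp11 (0.112) and Vldlr (0.108) lost theirs in Elf4-/-. In Elf4-/-, DESeq2 called 2 ATF4 and CHOP targets and the block 0, against 1. The cause was not tested. Scaling by library totals shifted the median gene by 0.43 (log2) in WT, -0.23 and 0.23 between genotypes under EtOH and Control and -0.46 in the interaction, and turned Hsp90b1 and Xbp1 in WT to 0.16 each. With it, 84.4% of calls in WT were higher (3422 higher, 634 lower) against 50.2%, and by genotype 71.4% against 85.0% under EtOH and 4 of 5 calls against 1 of 2 under Control.

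Same-numbered libraries are different mice, and their deviations correlated by -0.13 to 0.11 over 9398 genes. This showed no pairing by number, but it can miss an effect that differs between groups or touches few genes. With the replicate number as a block, 3 members were called in WT and 0 elsewhere, and genes called numbered 2639 and 240 by diet in WT and Elf4-/-, 10 and 2 by genotype under EtOH and Control, and 0 in the interaction.

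With 1 library left out, the lone library of its group was taken to vary like the others. Members called then ran from 1 to 3 in WT, 0 to 2 by genotype under Control and 0 to 1 in the interaction. Genes called ran from 621 to 4003 in WT, 4 to 1665 in Elf4-/-, 0 to 350 and 0 to 48 by genotype under EtOH and Control, and 0 to 112 in the interaction. Log2 fold changes that changed sign were those of Hspa5 (-0.029 to 0.61), Herpud1 (-0.065 to 0.28) and Atf4 (-0.020 to 0.44) in WT, and of Sdf2l1 (-0.40 to 0.22), Xbp1 (-0.82 to 0.26), Ddit3 (-0.80 to 0.064), Trib3 (-0.995 to 0.33) and Asns (-1.02 to 2.58) in Elf4-/-, none of which passed the threshold with all libraries.

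With 2 libraries a group, an effect that misses the threshold was not shown to be absent. Sdf2l1, Trib3 and Ddit3 rested on 35 to 182 counts a library and Asns on 2 to 30.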
